A study of Rattus norvegicus with 82 samples.

Results

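Interferon-stimulated genes are the genes that cells switch on when they sense interferon, and 39 of them, listed by symbol, were followed here in rat heart after a single dose of a tubulin-binding drug. Of the 39, 36 were matched to the array's probe annotation, and Ddx58, Gbp5 and Xaf1 were not. Each gene was read from the probe set with the highest mean intensity over all 82 arrays. Of the 36, 35 were bright enough in 5 or more arrays to test, among 11323 genes tested of 14217 with a probe set. The gene left out as too dim was Dhx58, a relative of the cytoplasmic RNA sensors, whose group medians lay between 24.76 and 34.86 intensity units.

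The animals were male Wistar (Crl:Wi(Han)) rats, and the tissue was heart. They received a single intravenous dose of a compound or the vehicle: vinblastine at 0.5 or 3 mg/kg, vincristine at 0.1 or 1 mg/kg, colchicine at 0.2 or 2 mg/kg, or saline. Hearts were taken at 6 h or 24 h, which gives 14 groups, with 6 animals in each except both vincristine 0.1 mg/kg groups, which hold 5. All groups were of the same strain and sex and differed only in the stated compound, dose and time, and the ages were not given in the sources used here. Vinblastine and vincristine are vinca alkaloids, vincristine carrying a formyl group where vinblastine carries a methyl group, and colchicine binds tubulin at another site. The doses differ between compounds, so their values are set side by side without a test between them.

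Interferons bind receptors at the cell surface, which activate JAK kinases and STAT proteins. After type I interferon, a complex that holds STAT2 and IRF9 binds the interferon-stimulated response element (ISRE). After interferon gamma the gamma-activated site (GAS) is bound, and IRF1 and IRF7 carry the response on. The induced genes restrict viruses at the membrane, in RNA and in translation, attach the small protein ISG15 to other proteins, and cut and load peptides onto class I MHC molecules. In the heart, myocytes, fibroblasts, endothelial cells and resident macrophages can all respond to interferon.

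Promoters are shown first for 5 genes that recur in the results and differ in their motifs. They are taken from RefSeq (GRCr8, 250 bases before to 50 after the annotated start, 5′ to 3′ on the gene's own strand), where 28 of the 36 genes had an entry. Capitals mark letters that match the ISRE core, searched as GAAA followed by any 2 bases and GAAA again, on either strand, or the GAS core TTCNNNGAA, which reads the same on both strands. Irf1, on the plus strand at chr10:38417685-38417984, held a GAS core starting 142 bases before the start. Ifit3, at chr1:241527076-241527375 (plus strand), held an ISRE core on the reverse strand from 44 bases before the start. Oas1a, at chr12:41330216-41330515 (plus strand), held overlapping ISRE cores from 41 and 35 bases before the start and a GAS core from 199 bases before it. Igtp, at chr10:42874797-42875096 (plus strand), held an ISRE core from 103 and a GAS core from 114 bases before the start, and these do not overlap. Mx1, at chr11:50294557-50294856 (minus strand), held neither spelling in this window.
Irf1: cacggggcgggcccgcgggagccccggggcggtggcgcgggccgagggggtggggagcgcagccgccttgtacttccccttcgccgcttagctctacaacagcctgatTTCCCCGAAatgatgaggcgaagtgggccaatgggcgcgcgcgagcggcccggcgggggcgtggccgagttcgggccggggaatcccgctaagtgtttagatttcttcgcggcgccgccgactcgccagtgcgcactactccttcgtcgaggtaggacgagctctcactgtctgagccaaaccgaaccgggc
Ifit3: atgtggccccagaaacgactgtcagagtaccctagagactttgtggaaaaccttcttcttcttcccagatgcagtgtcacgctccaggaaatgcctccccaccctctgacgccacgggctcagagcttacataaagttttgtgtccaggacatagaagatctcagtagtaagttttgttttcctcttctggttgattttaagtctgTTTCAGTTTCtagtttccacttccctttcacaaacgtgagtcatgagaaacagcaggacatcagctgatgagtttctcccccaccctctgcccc
Oas1a: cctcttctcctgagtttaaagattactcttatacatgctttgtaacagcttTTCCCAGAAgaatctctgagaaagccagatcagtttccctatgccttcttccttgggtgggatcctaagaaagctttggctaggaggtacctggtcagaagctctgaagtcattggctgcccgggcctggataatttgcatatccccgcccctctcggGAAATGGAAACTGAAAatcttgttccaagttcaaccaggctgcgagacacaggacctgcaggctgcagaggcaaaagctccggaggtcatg
Igtp: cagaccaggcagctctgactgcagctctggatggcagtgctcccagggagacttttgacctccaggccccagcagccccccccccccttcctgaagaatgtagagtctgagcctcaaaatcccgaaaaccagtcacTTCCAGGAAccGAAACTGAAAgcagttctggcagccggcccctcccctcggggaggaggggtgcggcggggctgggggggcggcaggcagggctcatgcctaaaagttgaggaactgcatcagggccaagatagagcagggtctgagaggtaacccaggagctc
Mx1: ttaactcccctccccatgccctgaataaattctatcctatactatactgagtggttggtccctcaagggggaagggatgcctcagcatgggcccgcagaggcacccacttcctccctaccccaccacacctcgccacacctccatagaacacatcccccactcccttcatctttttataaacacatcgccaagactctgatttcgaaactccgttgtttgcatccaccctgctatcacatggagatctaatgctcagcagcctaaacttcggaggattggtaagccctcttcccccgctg

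Over the 28 promoters, 19 (67.9%) held the ISRE core on either strand, against 1034 of the 27457 promoters in the table (3.77%). On the gene's own strand alone the shares were 39.3% and 1.92%. The GAS core was present in 8 of the 28 (28.6%), against 2382 of 27457 (8.68%). Neighbouring genes can share bases here: Psmb9 and Tap1 lie head to head, and their windows overlap. A match shows that the letters are present and is no evidence of a bound factor.

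**Figure D1:**
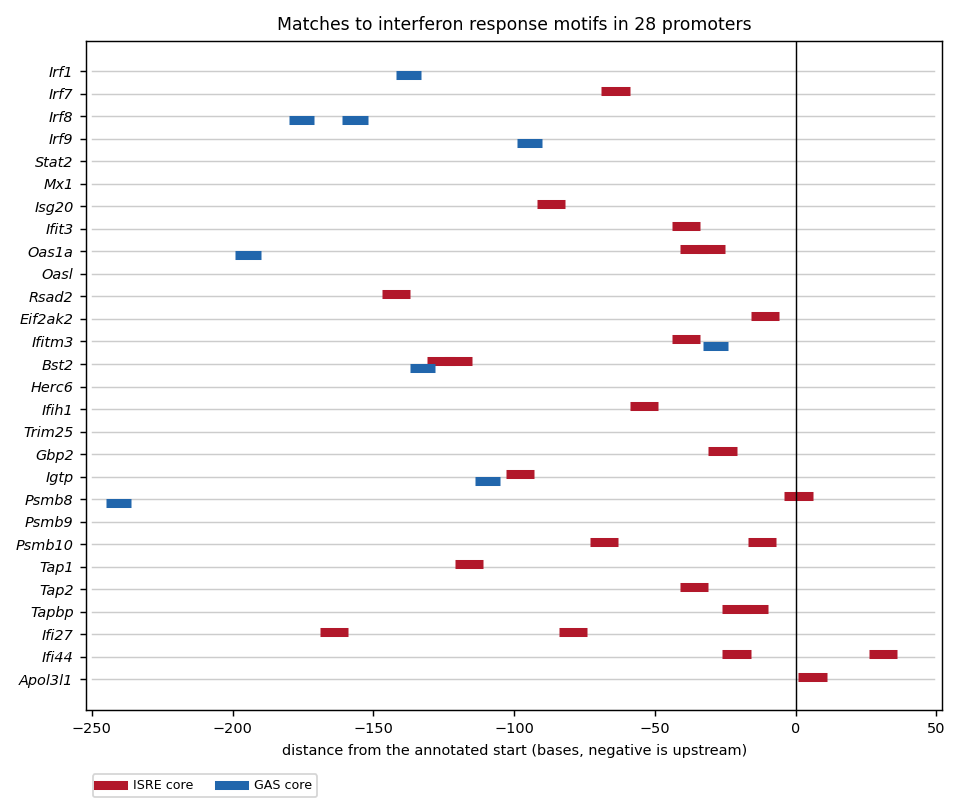
Matches to the ISRE core (red) and the GAS core (blue) in the promoters of 28 interferon-stimulated genes, 1 line a gene, against the distance from the annotated start in bases (negative is upstream). ISRE cores lay in 19 of the 28 promoters, and in Ifit3 and Oas1a they began 44 and 41 bases before the start.

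Array medians ranged from 57.61 to 63.31 intensity units, and the heart label was borne out by cardiomyocyte markers, of which 11 of 12 passed the filter with group medians of their summed intensity between 190600 and 203700. Over all genes, 10 arrays lay nearer the median profile of another group than that of their own, by a ratio above 1.3. The 6 h groups held 6 of these, namely replicate 6 of vinblastine 0.5 mg/kg, replicate 1 of 3 mg/kg, replicate 3 of vincristine 1 mg/kg, replicates 1 and 6 of colchicine 0.2 mg/kg and replicate 4 of 2 mg/kg. The 24 h groups held 4, namely replicate 5 of vinblastine 0.5 mg/kg, replicate 5 of vincristine 0.1 mg/kg, replicate 6 of colchicine 0.2 mg/kg and replicate 1 of 2 mg/kg, the last at a ratio of 3.20 with the colchicine 0.2 mg/kg group as its nearest. Vinblastine 0.5 mg/kg replicates 6 at 6 h and 5 at 24 h lay nearest colchicine 2 mg/kg at 6 h. Colchicine 0.2 mg/kg 24 h replicate 6 lay nearest vincristine 1 mg/kg at 6 h. Vincristine 1 mg/kg 6 h replicate 3 lay nearest saline at 24 h. Colchicine 2 mg/kg 6 h replicate 4 lay nearest vinblastine 0.5 mg/kg at 24 h. Those left lay nearest a group of the same dose level or, for colchicine 0.2 mg/kg at 6 h, saline at 24 h. Whether any label is wrong was not tested. All were kept as labelled, and counts without them are given beside the results. In whole tissue, fewer cells of a type and less RNA per cell cannot be told apart.

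The counts of interferon-stimulated genes that changed were highest at the higher doses and at 24 h. None passed the threshold, an adjusted p under 0.05 with Benjamini-Hochberg adjustment over all genes tested, at the lower doses of vinblastine or vincristine at 6 h or of any compound at 24 h. By limma's unadjusted p under 0.05, 1 of the 35 and 441 of all genes differed with vincristine 0.1 mg/kg at 6 h (0% of all genes called in either direction). At 24 h none of the 35 did at a lower dose, against 227, 316 and 289 of all genes with vinblastine, vincristine and colchicine, and again 0% of all genes were called. At 6 h, 16 of the 35 rose and 1 fell with vinblastine 3 mg/kg, where 15.7% of all genes tested rose and 7.67% fell. With vincristine 1 mg/kg, 7 rose and 1 fell (2.05% and 1.25% of all genes), and with colchicine 2 mg/kg, 1 rose and 2 fell (4.89% and 4.37%). At 24 h, 26 rose and none fell with vinblastine 3 mg/kg (5.29% and 4.28% of all genes), 30 rose and 1 fell with vincristine 1 mg/kg (12% and 18.4%), and 15 rose and 1 fell with colchicine 2 mg/kg (19.3% and 25.3%).

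The members' shares stood above those of all genes tested for the rises with both vinca alkaloids at both times and with colchicine at 24 h, and not for the single rise with colchicine at 6 h. As shares of the 35 genes, the rises were 45.7%, 20% and 2.86% at 6 h and 74.3%, 85.7% and 42.9% at 24 h with vinblastine, vincristine and colchicine. The median log2 change of the 35 genes was 0.32, 0.23 and 0.10 at 6 h and 0.69, 0.69 and 0.31 at 24 h, in the same order of compounds. The median over all genes ran from -0.03 to 0.02 in the 12 comparisons with saline. Comparisons at the same time share their 6 saline animals. The ratio of 3′ to 5′ control probe sets, a sign of RNA quality, moved with some of these groups. At 24 h the log2 ratio of beta-actin was 0.71, 0.83 and 1.34 (lowest, median, highest) with vinblastine 3 mg/kg, 0.76, 0.87 and 1.13 with vincristine 1 mg/kg and 0.78, 0.93 and 1.09 with colchicine 2 mg/kg, against 0.69, 0.72 and 0.83 in saline animals. That of GAPDH was 0.33, 0.35 and 0.44 with vincristine 1 mg/kg, against 0.26, 0.29 and 0.36 in saline animals. The ranges overlapped, and the part of RNA quality in the 24 h results was not tested. In the map of changes the 24 h columns of the 3 higher doses are the darkest, while Adar is blue at the higher doses, apart from a paler field with vinblastine at 24 h, and Isg20 is blue at 6 h.

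**Figure D2:**
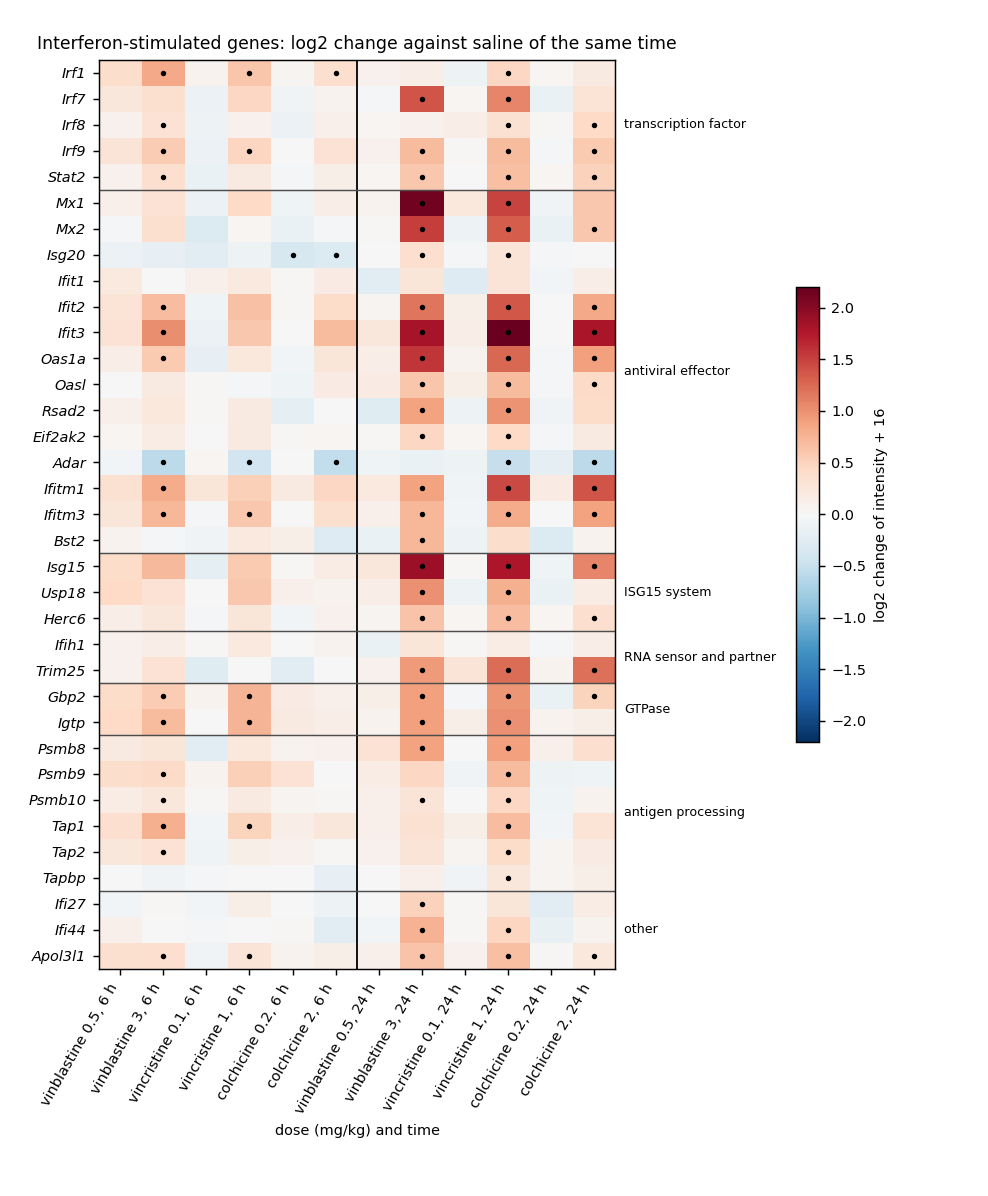
Log2 change of intensity + 16 against saline of the same time for 35 interferon-stimulated genes (rows, grouped by role) in 12 dosed groups (columns, dose in mg/kg), red higher and blue lower, with a dot where the adjusted p was under 0.05. Dots mark 30 rises and 1 fall with vincristine 1 mg/kg at 24 h, and none for the lower doses at 24 h.

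Most of the 5 transcription factors rose at 6 h with vinblastine. With 3 mg/kg, 4 rose (Irf1, Irf8, Irf9 and Stat2), with vincristine 1 mg/kg 2 rose (Irf1 and Irf9) and with colchicine 2 mg/kg Irf1 alone. Irf1, the factor that binds interferon response elements early, had a lowest, median and highest intensity of 288.2, 430.7 and 566.3 in vinblastine 3 mg/kg animals, against 168.7, 235.8 and 270.1 in saline animals. It stood at 275.8, 356.5 and 448.3 with vincristine 1 mg/kg and at 236, 309 and 369.5 with colchicine 2 mg/kg. All vinblastine 3 mg/kg and vincristine 1 mg/kg animals lay above every saline animal, and the colchicine group overlapped with saline. The log2 changes were 0.83 ± 0.12 (SE, adjusted p = 2.47e-06), 0.62 ± 0.12 (adjusted p = 0.00521) and 0.36 ± 0.12 (adjusted p = 0.0464), with 6 of 6 animals above the saline mean in each. The colchicine call was lost in 7 of 12 fits that left out 1 animal, with an adjusted p of up to 0.162. At the lower doses the Irf1 medians were 304 with vinblastine 0.5 mg/kg, 249.9 with vincristine 0.1 mg/kg and 234.7 with colchicine 0.2 mg/kg.

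Irf9, the DNA-binding partner of STAT2, had 250.1, 284.9 and 379.7 (lowest, median, highest) with vinblastine 3 mg/kg and 238.6, 284.1 and 330.7 with vincristine 1 mg/kg, against 181, 194.2 and 237.1 in saline animals at 6 h. Neither dosed group overlapped with saline, and the log2 changes were 0.55 ± 0.12 (adjusted p = 2.76e-04) and 0.47 ± 0.12 (adjusted p = 0.0146). With colchicine 2 mg/kg it ran from 216.9 to 272.8 with a median of 263.2 and was not called (0.32), while a dimmer Irf9 probe set was (0.42, adjusted p over all probe sets 0.0340). Stat2 rose by 0.38 and Irf8, a factor best known from myeloid cells, by 0.31 with vinblastine 3 mg/kg. Irf7, which amplifies type I interferon production, was not called at 6 h with any dose.

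Among the 14 antiviral effectors, 5 rose and 1 fell with vinblastine 3 mg/kg at 6 h, 1 rose and 1 fell with vincristine 1 mg/kg, and 2 fell with colchicine 2 mg/kg. Ifitm3, a membrane protein that blocks virus entry, was the only effector to rise with both vinca alkaloids. Its intensities were 3684, 4652 and 7919 with vinblastine 3 mg/kg and 3724, 4604 and 5017 with vincristine 1 mg/kg, against 2144, 3006 and 3484 in saline animals. The dosed groups did not overlap with saline, with log2 changes of 0.73 ± 0.13 (adjusted p = 3.30e-05) and 0.59 ± 0.13 (adjusted p = 0.00907). Colchicine 2 mg/kg gave 3391, 3890 and 3949, below the threshold of the test. Its relative Ifitm1 rose by 0.82 ± 0.21 with vinblastine 3 mg/kg (adjusted p = 0.00239), at 813.6, 1147 and 2336 against 436.3, 698.8 and 856.9 in saline animals, with overlap.

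Ifit3, which binds viral RNA together with the other IFIT proteins, showed 53.36, 86.93 and 360.1 with vinblastine 3 mg/kg, against 38.33, 41.89 and 67.72 in saline animals at 6 h. Most dosed animals lay above saline, the groups overlapped, and the change was 1.02 ± 0.31 (adjusted p = 0.00997). Vincristine 1 mg/kg gave 49.61, 76.04 and 101.9 and colchicine 2 mg/kg gave 46.97, 88.93 and 109.5, with log2 changes of 0.60 and 0.70 that did not pass (adjusted p = 0.279 and 0.149). Oas1a, which makes the second messenger that activates RNase L, rose by 0.58 ± 0.19 with vinblastine 3 mg/kg (adjusted p = 0.0176), at 65.51, 85.06 and 235.1 against 53.09, 61.63 and 77.1 in saline animals. Its highest value, like that of Ifit3, Ifitm1 and Ifitm3, came from replicate 1, an array nearer another group. Without the 10 arrays nearer another group the changes of Ifit3 and Oas1a were 0.70 and 0.36 and were no longer called (adjusted p = 0.0551 and 0.151).

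Mx1, the dynamin-like GTPase that traps viral particles, was not called at 6 h. It had 38.97, 46.01 and 140.4 with vinblastine 3 mg/kg, 29.57, 57.21 and 115.4 with vincristine 1 mg/kg and 34.89, 40.54 and 76.5 with colchicine 2 mg/kg, against 30.68, 35.82 and 68.84 in saline animals. The ranges overlapped throughout, with log2 changes of 0.31, 0.44 and 0.14.

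Adar, an enzyme that edits adenosine in double-stranded RNA and so damps its sensing, fell at 6 h with all 3 higher doses. It stood at 265.3, 300.4 and 373.6 with vinblastine 3 mg/kg, 255.3, 351.8 and 446.6 with vincristine 1 mg/kg and 247.6, 302.2 and 501.4 with colchicine 2 mg/kg, against 402.3, 462.1 and 524.5 in saline animals. The vinblastine group lay wholly below saline and the other groups overlapped with it. The log2 changes were -0.58 ± 0.12 (adjusted p = 3.42e-04), -0.42 ± 0.12 (adjusted p = 0.0396) and -0.55 ± 0.12 (adjusted p = 0.00172), with 6, 6 and 5 of 6 animals below the saline mean. Lower-dose medians were 481.1, 472.5 and 450 with vinblastine, vincristine and colchicine. A further Adar probe set was lower with vinblastine and colchicine (-0.36 and -0.45, adjusted p over all probe sets 0.00335 and 0.000736) and not called with vincristine (-0.26, adjusted p = 0.105), and a further one was called in none of the 3.

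Isg20, an exonuclease that degrades single-stranded RNA, was the only gene called at a lower dose. With colchicine 0.2 mg/kg at 6 h it had 28.27, 30.41 and 31.67, against 37.34, 42.69 and 48.57 in saline animals, a log2 change of -0.35 ± 0.09 (adjusted p = 0.0440). With colchicine 2 mg/kg it had 26.17, 32.94 and 36.04, a change of -0.30 ± 0.09 (adjusted p = 0.0137). Neither colchicine group overlapped with saline, although the probe set is dim. Of all genes, 0.247% rose and 0.0265% fell with colchicine 0.2 mg/kg, and 0.0883% were called without overlap. The call at 0.2 mg/kg was lost when any of saline replicates 1, 3, 4 or 6 or colchicine replicates 2, 3, 4 or 5 was left out, which leaves 0 genes called.

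Both interferon-inducible GTPases rose at 6 h with the vinca alkaloids. Gbp2, which coats pathogen-containing compartments, had 126.8, 198.2 and 377.3 with vinblastine 3 mg/kg and 182.8, 241.6 and 255.1 with vincristine 1 mg/kg, against 88.82, 139.8 and 176.7 in saline animals. Vincristine animals all lay above saline and vinblastine animals did not, and the changes were 0.57 ± 0.19 (adjusted p = 0.0207) and 0.75 ± 0.19 (adjusted p = 0.0150). With colchicine 2 mg/kg Gbp2 stood at 124.1, 137.9 and 197.6, close to saline. Igtp, an immunity-related GTPase, had 118.9, 185.4 and 322.6 with vinblastine 3 mg/kg and 149.6, 204.4 and 250.2 with vincristine 1 mg/kg, against 75.77, 118.7 and 143.8 in saline animals. Its changes were 0.70 ± 0.18 (adjusted p = 0.00269) and 0.76 ± 0.18 (adjusted p = 0.0125), and a dimmer Igtp probe set gave 0.31 and 0.44, not called.

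In antigen processing, 4 of 6 genes rose with vinblastine 3 mg/kg at 6 h and 1 with vincristine 1 mg/kg. Tap1, a subunit of the peptide transporter, had 193.3, 257.2 and 377 with vinblastine and 181.6, 208 and 239.9 with vincristine, against 115.1, 139.9 and 183.5 in saline animals. The vinblastine animals lay above every saline animal, and the changes were 0.78 ± 0.15 (adjusted p = 7.48e-05) and 0.50 ± 0.15 (adjusted p = 0.0397). Over all alternative fits these changes ran from 0.38 to 0.86 and from 0.22 to 0.56. The vincristine call was lost when the Tap1 probe sets were averaged. Tap2, its partner, and the immunoproteasome subunits Psmb9 and Psmb10 rose by 0.32, 0.41 and 0.25 with vinblastine. They were not called with vincristine, and the difference between compounds was not tested. Apol3l1, an apolipoprotein L family gene, rose with both vinca alkaloids, at 345.5, 360.3 and 468.6 and at 336.6, 356.5 and 387.7, against 259, 299.7 and 310.9 in saline animals. Neither group overlapped with saline, and the changes were 0.38 ± 0.09 (adjusted p = 0.000944) and 0.29 ± 0.09 (adjusted p = 0.0452). None of the genes of the ISG15 system was called at 6 h, and Isg15 itself had changes of 0.71, 0.58 and 0.17 (adjusted p = 0.0604, 0.259 and 0.819).

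The 6 h counts leaned on single animals. The 17 calls with vinblastine 3 mg/kg became 10 without its replicate 1 and 12 without the 10 arrays nearer another group. The 8 calls with vincristine 1 mg/kg became 3, 4, 4 or 5 without its replicates 5, 4, 6 or 2 and 5 or 4 without saline replicate 1 or 3, and 9 without the 10 arrays. The 3 calls with colchicine 2 mg/kg became 6 without its replicate 4 and 8 without the 10 arrays. The vinblastine calls that held without any 1 animal numbered 9, namely Irf1, Irf9, Stat2, Adar, Ifitm3, Ifitm1, Igtp, Tap1 and Apol3l1. With vincristine Irf1, Ifitm3 and Igtp held, and with colchicine Adar did. The vincristine calls of Adar, Apol3l1 and Tap1 were each lost in 9 of 12 such fits. Of the interferon-stimulated genes called, 8 of 17, 6 of 8 and 1 of 3 (47.1%, 75% and 33.3%) had no dosed animal inside the saline range with vinblastine, vincristine and colchicine. The same held for 30.2%, 20.1% and 9.72% of all genes called, which are 7.04%, 0.662% and 0.901% of all genes tested.

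At 24 h genes of most roles rose. Of the 5 transcription factors 3, 5 and 3 rose with vinblastine 3 mg/kg, vincristine 1 mg/kg and colchicine 2 mg/kg, of the 14 antiviral effectors 12, 11 and 7, and of the 3 genes of the ISG15 system 3, 3 and 2. Of the 6 antigen processing genes 2, 6 and 0 rose. Of the 2 GTPases 2, 2 and 1 rose, of the 3 other interferon-induced genes 3, 2 and 1, and of the RNA sensor Ifih1 and the partner Trim25, Trim25 alone in each group. Of all genes, 5.29%, 12% and 19.3% rose in these comparisons, and a count within a role of few genes is given as a description. Ifit1 and Ifih1, an RNA sensor, were the tested genes called in no comparison with saline, with 24 h changes of 0.27, 0.29 and 0.14 for Ifit1 and 0.26, 0.17 and 0.14 for Ifih1.

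Mx1 had the largest rise with vinblastine 3 mg/kg at 24 h. Its intensities were 65.56, 220.8 and 578.8 (lowest, median, highest) with vinblastine 3 mg/kg, 43.71, 151.2 and 379.1 with vincristine 1 mg/kg and 30.31, 42.5 and 289.2 with colchicine 2 mg/kg, against 32.22, 37.34 and 39.6 in saline animals. Every vinblastine and vincristine animal lay above every saline animal. With colchicine a single animal, replicate 5, stood at 289.2 and the others at or under 70.49. The log2 changes were 2.12 ± 0.34 (adjusted p = 5.70e-06), 1.49 ± 0.34 (adjusted p = 3.80e-04) and 0.59 ± 0.34 (adjusted p = 0.153), and lower-dose medians were 38.17, 48.42 and 33.52 with vinblastine, vincristine and colchicine. Its relative Mx2 rose by 1.52, 1.34 and 0.59 with the 3 higher doses. The colchicine call was lost in 4 of 12 fits without 1 animal and when probe sets were averaged, and a dimmer Mx2 probe set was not called there (0.50, adjusted p over all probe sets 0.371).

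Ifit3 rose with all 3 compounds at 24 h. It had 86.75, 190.9 and 517.4 with vinblastine 3 mg/kg, 134.4, 278.9 and 408.2 with vincristine 1 mg/kg and 39.26, 181 and 606.3 with colchicine 2 mg/kg, against 35.96, 42.51 and 50.89 in saline animals. Vinca alkaloid animals were all above saline, and with colchicine replicate 1 alone lay inside the saline range. The changes were 1.81 ± 0.31 (adjusted p = 1.93e-05), 2.17 ± 0.31 (adjusted p = 8.42e-08) and 1.80 ± 0.31 (adjusted p = 1.22e-06), and the colchicine value was 2.18 without the arrays nearer another group. The 5 vincristine 0.1 mg/kg animals had 42.26, 62.03, 61.65, 39.59 and 42.16, and the medians with vinblastine 0.5 mg/kg and colchicine 0.2 mg/kg were 56.8 and 43.17. Ifit2 rose by 1.18, 1.37 and 0.84 with the 3 higher doses.

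Oas1a had 137.2, 196.2 and 372.4 with vinblastine 3 mg/kg, 91.68, 177.9 and 249.8 with vincristine 1 mg/kg and 59.97, 113 and 215.1 with colchicine 2 mg/kg, against 53.48, 58.62 and 68.39 in saline animals at 24 h. Its changes were 1.57 ± 0.19 (adjusted p = 5.06e-09), 1.27 ± 0.19 (adjusted p = 2.08e-07) and 0.90 ± 0.19 (adjusted p = 5.49e-05). Only the colchicine group touched the saline range, through replicate 1. Oasl, an OAS family relative, rose by 0.61, 0.70 and 0.43. Rsad2, known as viperin, rose by 0.88 and 0.98 with vinblastine and vincristine, and Eif2ak2, the kinase PKR that halts translation on double-stranded RNA, rose by 0.46 and 0.44. Bst2, which tethers budding virions, rose by 0.73 with vinblastine 3 mg/kg.

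**Figure D3:**
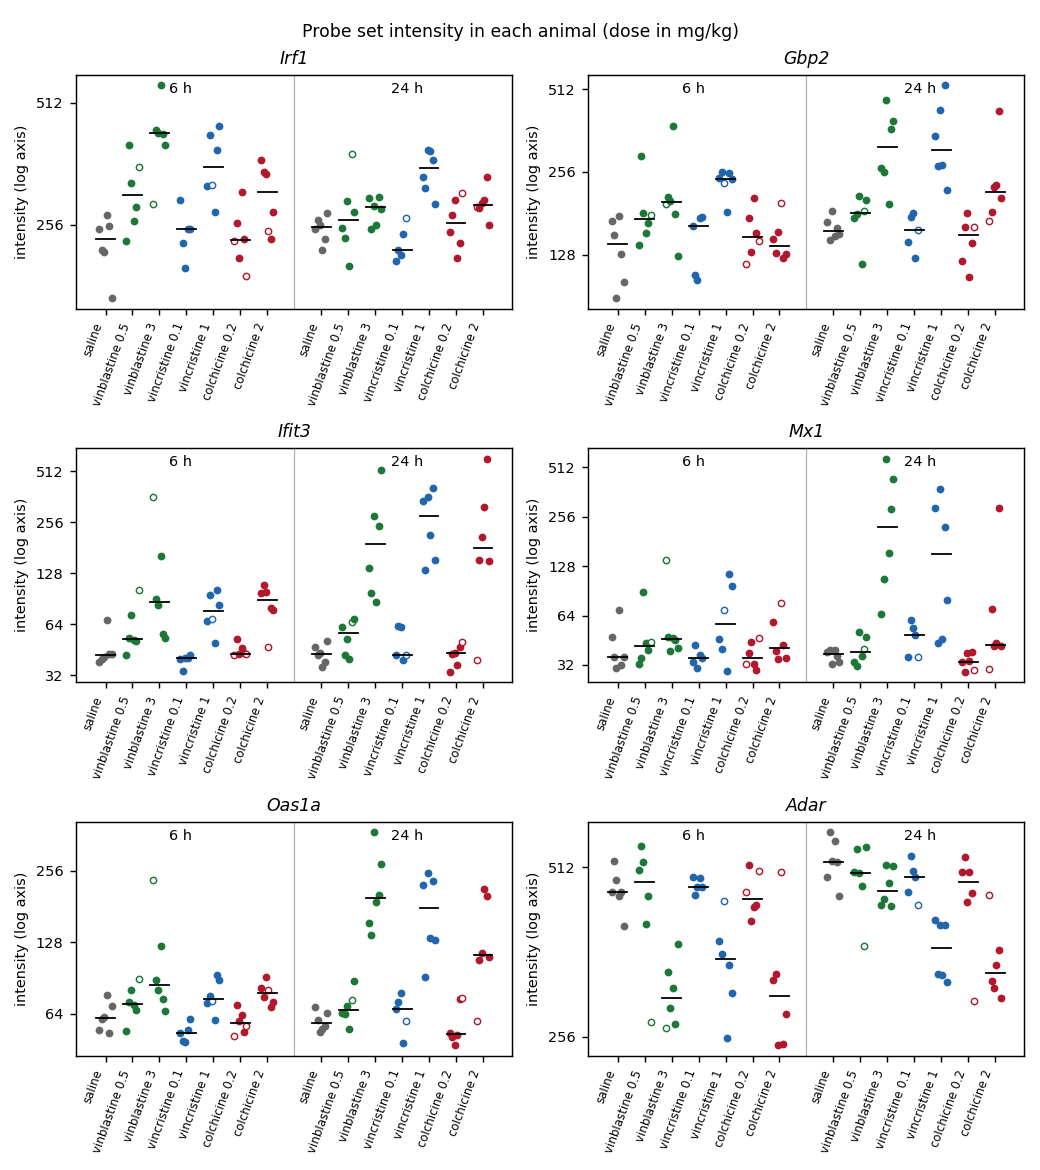
Probe set intensity on a log axis in each animal for Irf1, Gbp2, Ifit3, Mx1, Oas1a and Adar in the 14 groups (6 h left, 24 h right, dose in mg/kg), with the group median as a line and open circles for the 10 arrays nearer another group. With vinblastine 3 mg/kg the Irf1 median is 430.7 at 6 h and 282.8 at 24 h. With vincristine 1 mg/kg the Irf1 medians are 356.5 and 353.2. Mx1 and Ifit3 are high at 24 h, with medians of 220.8 and 190.9 with vinblastine 3 mg/kg.

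Both membrane proteins rose with all 3 compounds at 24 h. Ifitm1 had 797.8, 1201 and 1477 with vinblastine 3 mg/kg, 1413, 1716 and 1940 with vincristine 1 mg/kg and 1065, 1793 and 2325 with colchicine 2 mg/kg, against 418.7, 543.5 and 963.6 in saline animals. The vincristine and colchicine groups lay above saline without overlap. The changes were 0.88 ± 0.21 (adjusted p = 0.00244), 1.45 ± 0.21 (adjusted p = 1.39e-07) and 1.39 ± 0.21 (adjusted p = 8.53e-08). Ifitm3 had 4368, 5426 and 6068 with vinblastine 3 mg/kg, 4960, 5864 and 6206 with vincristine 1 mg/kg and 3605, 6495 and 7679 with colchicine 2 mg/kg, against 2816, 3147 and 3784 in saline animals. Both vinca groups lay above saline, and the colchicine group reached into it. Its changes were 0.73 ± 0.13, 0.82 ± 0.13 and 0.89 ± 0.13, with adjusted p of 3.11e-05, 7.12e-07 and 3.10e-08.

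Isg20 rose at 24 h with both vinca alkaloids, at 36.7, 51.38 and 69.36 with vinblastine 3 mg/kg and 38.48, 45.41 and 60.11 with vincristine 1 mg/kg, against 29.77, 35.55 and 41.11 in saline animals. The groups overlapped, and the changes were 0.37 ± 0.09 (adjusted p = 0.00191) and 0.28 ± 0.09 (adjusted p = 0.00820). With colchicine 2 mg/kg it ran from 26.1 to 52.65 with a median of 34.51. Adar stayed low with vincristine and colchicine, at 320.2, 367.8 and 412.3 and at 300.1, 332.3 and 457.9, against 454.8, 523.7 and 590.4 in saline animals. Its changes were -0.50 ± 0.12 (adjusted p = 9.89e-04) and -0.57 ± 0.12 (adjusted p = 7.43e-05). With vinblastine 3 mg/kg it had 437.2, 465.2 and 516.4, a change of -0.15 ± 0.12 that was not called (adjusted p = 0.539), and a further Adar probe set was lower with colchicine (-0.34, adjusted p over all probe sets 0.00157) and not with vincristine (-0.23, adjusted p = 0.0543). The third Adar probe set was called with neither.

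In the ISG15 system, Isg15, the ubiquitin-like modifier itself, had 493.7, 1087 and 2469 with vinblastine 3 mg/kg, 446.6, 1167 and 1764 with vincristine 1 mg/kg and 244.5, 525 and 1480 with colchicine 2 mg/kg, against 227.3, 265 and 352.6 in saline animals at 24 h. Vinca alkaloid animals all lay above saline. The changes were 1.89 ± 0.29 (adjusted p = 2.12e-06), 1.78 ± 0.29 (adjusted p = 1.44e-06) and 1.08 ± 0.29 (adjusted p = 0.00139), the last in 5 of 6 animals. Usp18, which removes ISG15 and restrains the receptor, rose by 1.01 and 0.78 with vinblastine and vincristine, and Herc6, which serves as an ISG15 ligase in mice, by 0.62, 0.67 and 0.38 with all 3. In saline animals Herc6 was about as dim as the untested Dhx58, with medians of 27.49 and 28.34. It may have passed the filter through dosed animals. Trim25, the ubiquitin ligase that acts with the sensor RIG-I, rose by 0.93, 1.23 and 1.21, with intensities of 359.5, 950.6 and 1130 with colchicine 2 mg/kg against 287.4, 338.1 and 493.5 in saline animals.

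Among the transcription factors at 24 h, Irf9 had 285.2, 326.7 and 467.5 with vinblastine 3 mg/kg, 284.3, 339 and 399.6 with vincristine 1 mg/kg and 185.2, 303.3 and 445.4 with colchicine 2 mg/kg, against 196.6, 202 and 213.3 in saline animals. Its changes were 0.69 ± 0.12 (adjusted p = 1.24e-05), 0.70 ± 0.12 (adjusted p = 1.94e-06) and 0.57 ± 0.12 (adjusted p = 2.90e-05). Irf7 rose by 1.39 ± 0.23 and 1.07 ± 0.23 with the vinca alkaloids (adjusted p = 8.41e-06 and 1.43e-04), at medians of 852.2 and 700.3 against 343 in saline animals, and was not called with colchicine. Stat2 rose by 0.60, 0.66 and 0.51. Irf1 was called only with vincristine 1 mg/kg, by 0.45 ± 0.12 (adjusted p = 0.00323), at 288.6, 353.2 and 391.5 against 221.5, 253.1 and 273.7 in saline animals. With vinblastine 3 mg/kg its 24 h values were 249.4, 282.8 and 299.3, a change of 0.14 (adjusted p = 0.553), and with colchicine 2 mg/kg 255.6, 285.9 and 336.7, a change of 0.20 (adjusted p = 0.185). Irf8 rose by 0.33 with vincristine and 0.44 with colchicine.

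The GTPases rose again at 24 h. Gbp2 had 194.9, 316.7 and 467.4 with vinblastine 3 mg/kg, 219.2, 308.4 and 530.1 with vincristine 1 mg/kg and 170, 215.5 and 425.7 with colchicine 2 mg/kg, against 144.9, 155.8 and 184.8 in saline animals. Both vinca groups lay above saline, and the changes were 0.90 ± 0.19 (adjusted p = 4.61e-04), 0.98 ± 0.19 (adjusted p = 3.23e-05) and 0.48 ± 0.19 (adjusted p = 0.0295). Igtp had 174.3, 230.8 and 329.1 with vinblastine and 158.4, 267 and 421.3 with vincristine, against 98.22, 114 and 141.6 in saline animals, changes of 0.90 and 1.01. With colchicine it had 96.03, 105.7 and 241.8 and a change of 0.12 that was not called (adjusted p = 0.611), and a dimmer Igtp probe set was called with none of the 3 compounds.

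Of the antigen processing genes, all 6 rose with vincristine at 24 h and fewer passed with the other compounds, a difference that was not tested. With vincristine 1 mg/kg Psmb8, Psmb9 and Psmb10, the catalytic subunits of the immunoproteasome, rose by 0.91, 0.69 and 0.45, Tap1 and Tap2 by 0.67 and 0.40, and Tapbp, the bridge between the transporter and class I MHC, by 0.25. The Tap1 change ran from 0.34 to 0.73 over all alternative fits. With vinblastine 3 mg/kg only Psmb8 and Psmb10 were called, at 0.88 and 0.29, and with colchicine 2 mg/kg none. Psmb8 had a median of 247.4 with vinblastine and 248.9 with vincristine, against 130.5 in saline animals, and no animal of either group lay inside the saline range. Apol3l1 had 429.9, 465.1 and 527.5 with vinblastine, 385.5, 489 and 549.8 with vincristine and 271.3, 365.5 and 411.8 with colchicine, against 255.4, 290.3 and 358.6 in saline animals. Its changes were 0.63 ± 0.09 (adjusted p = 2.75e-07), 0.66 ± 0.09 (adjusted p = 1.91e-08) and 0.23 ± 0.09 (adjusted p = 0.0253), the last no longer called without the arrays nearer another group. Ifi44 rose by 0.77 and 0.47 with the vinca alkaloids and Ifi27, a mitochondrial interferon-induced protein, by 0.51 with vinblastine.

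At 24 h most calls with the vinca alkaloids also separated the animals. Of the interferon-stimulated genes called, 21 of 26 with vinblastine 3 mg/kg, 24 of 31 with vincristine 1 mg/kg and 2 of 16 with colchicine 2 mg/kg (80.8%, 77.4% and 12.5%) had no dosed animal inside the saline range. Among all genes called the shares were 50.6%, 61.5% and 19.1% (4.84%, 18.7% and 8.51% of all genes tested), so that with colchicine that of the interferon-stimulated genes was the smaller. Without replicate 1, the colchicine array nearest the 0.2 mg/kg group, 13 of the same 16 genes had none. The share among all genes called was not computed without that array, so the 13 cannot be set against the 19.1%. The counts of calls were 27, 31 and 17 without the arrays nearer another group, and ranged over 25 to 27, 30 to 32 and 14 to 18 with any 1 animal left out. Calls lost in that way were Psmb10 with vinblastine, Tap2 and Usp18 with vincristine, and Apol3l1, Gbp2 and Mx2 with colchicine.

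The higher dose of each compound was also set against its lower dose, with no saline animal in the fold. At 24 h, 26 genes were higher and none lower at vinblastine 3 mg/kg than at 0.5 mg/kg (3.92% and 1.56% of all genes), 30 higher and 1 lower at vincristine 1 mg/kg than at 0.1 mg/kg (12.3% and 11.6%), and 17 higher and 1 lower at colchicine 2 mg/kg than at 0.2 mg/kg (18.8% and 22.6%). Mx1 differed by 2.04 and 1.25 between the doses of vinblastine and vincristine, Ifit3 by 1.55, 2.03 and 1.81 and Isg15 by 1.65, 1.76 and 1.18 between the doses of all 3. Ifih1, the sensor MDA5, was higher at vinblastine 3 mg/kg than at 0.5 mg/kg by 0.40 (adjusted p = 0.00690), its only call here.

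At 6 h the doses differed in fewer genes. With vinblastine 2 were higher and 1 lower at the higher dose (5.81% and 2.71% of all genes), with vincristine 8 higher and 1 lower (1.61% and 1.2%), and with colchicine none higher and 1 lower (4.46% and 4.77%). Irf1 and Ifitm3 were higher with both vinca alkaloids, by 0.43 and 0.47 with vinblastine and by 0.53 and 0.64 with vincristine. Adar was lower at the higher dose of all 3, by -0.51, -0.45 and -0.53. The rest of the vincristine calls were Irf9, Ifit2, Gbp2, Igtp, Tap1 and Apol3l1, at 0.60, 0.73, 0.67, 0.76, 0.55 and 0.37. These counts moved with single animals: the 3 with vinblastine became 1 without vinblastine 0.5 mg/kg replicate 1, the 9 with vincristine became 2 or 3 without vincristine 0.1 mg/kg replicate 3 or 2, 3 without vincristine 1 mg/kg replicate 6 and 5 without its replicates 2, 4 or 5, and the 1 with colchicine became 2 without colchicine 0.2 mg/kg replicate 1, 2 or 4 or colchicine 2 mg/kg replicate 5 and 7 without colchicine 2 mg/kg replicate 4. Vinblastine 0.5 mg/kg had no call at 6 h, where 0.00883% of all genes rose and 0.0265% fell (0.0353% called without overlap), but 9 of the 35 genes had an unadjusted limma p under 0.05 (591 of all genes), 31 of 35 changes were positive, and Irf1 stood at 0.39 (adjusted p = 0.846).

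**Figure D4:**
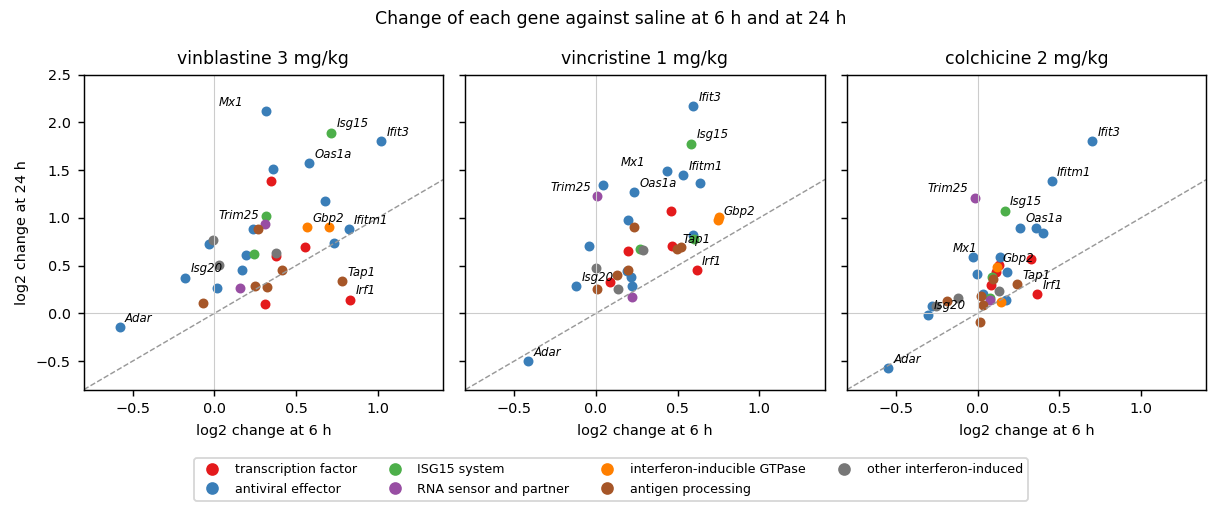
Log2 change against saline at 24 h (vertical) plotted against that at 6 h (horizontal) for each of 35 genes, coloured by role, with a dashed line where both are equal, for the higher dose of each compound. Irf1 lies below the line with vinblastine 3 mg/kg (0.14 at 24 h and 0.83 at 6 h), while Mx1, Isg15 and Ifit3 lie above it.

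The timing of the genes was compared as the 24 h change less that of 6 h, each against its own saline group. With vinblastine 3 mg/kg 7 genes had a larger change at 24 h and 1 a smaller change (1.78% and 2.66% of all genes), with vincristine 1 mg/kg 12 and none (3.52% and 8.73%), and with colchicine 2 mg/kg 4 and none (6.3% and 12.6%). The gene with the smaller change at 24 h was Irf1 with vinblastine, by -0.69 ± 0.17 (adjusted p = 0.0138). The changes of Mx1 and Oas1a were larger at 24 h with vinblastine by 1.80 ± 0.48 and 0.99 ± 0.27 (adjusted p = 0.0184 and 0.0201), and Ifit3 and Oas1a with vincristine by 1.58 ± 0.43 and 1.04 ± 0.27 (adjusted p = 0.00936 and 0.00529). That of Trim25 was larger with vincristine and colchicine by 1.22 and 1.23. The saline groups themselves differed in none of the 35 genes between 24 h and 6 h (0% of all genes higher and 0.00883% lower). At an unadjusted limma p under 0.05 there were 2 of the 35 and 1426 of all genes. The 2 were Isg20, lower in saline at 24 h (log2 change -0.20), and Psmb9, higher (0.33). Trim25 had the largest saline change of the 35, at -0.37, with means of 480.7 at 6 h and 363.9 at 24 h. A fall in saline adds to the timing difference as computed, so the Trim25 and Isg20 values include these saline changes, neither of which was called.

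Of the genes that rose at 6 h, 11 of 16 (68.8%) with vinblastine 3 mg/kg and 7 of 7 (100%) with vincristine 1 mg/kg also rose at 24 h, where they made up 42.3% and 23.3% of the rises. Over all genes 14.7% and 61.6% of the 6 h rises also rose at 24 h, and these were 43.4% and 10.6% of the 24 h rises. With colchicine 2 mg/kg the 1 gene that rose at 6 h, Irf1, was not called at 24 h. Over all genes 74.2% of the 6 h rises with colchicine also rose at 24 h. Irf1, Irf8, Psmb9, Tap1 and Tap2 passed at 6 h and not at 24 h with vinblastine, though of these only Irf1 differed between the times by the test. The timing counts depended on few animals. The 8 with vinblastine became 5 without vinblastine 3 mg/kg 6 h replicate 3, 3 without its 24 h replicate 3 and 5 without its 24 h replicate 5. The 4 with colchicine became 11 without colchicine 2 mg/kg 24 h replicate 1, and 2 without its 24 h replicate 3 or 5, saline 6 h replicate 5 or saline 24 h replicate 4. Without the 10 arrays nearer another group the counts were 14, 13 and 11 for vinblastine, vincristine and colchicine.

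Animals differed in the size of the response as a whole. The mean log2 deviation of the 35 genes from the saline mean was 0.44, 0.68 and 1.17 (lowest, median, highest) in vinblastine 3 mg/kg animals, 0.44, 0.78 and 1.18 in vincristine 1 mg/kg animals and -0.04, 0.33 and 0.95 in colchicine 2 mg/kg animals at 24 h, against -0.07, -0.02 and 0.09 in saline animals. Each vinca alkaloid animal lay above every saline animal, and so did all colchicine animals but replicate 1. At 6 h the values were 0.12, 0.23 and 0.69 with vinblastine, 0.11, 0.29 and 0.43 with vincristine and -0.07, 0.11 and 0.19 with colchicine, against -0.17, 0.01 and 0.19 in saline animals, so that the groups overlapped. In single animals at 24 h, 32 to 34 of the 35 genes lay above the saline mean with vinblastine 3 mg/kg and 31 to 34 with vincristine 1 mg/kg. With colchicine 2 mg/kg the count was 11 in replicate 1 and 24 to 33 in the other 5 animals.

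**Figure D5:**
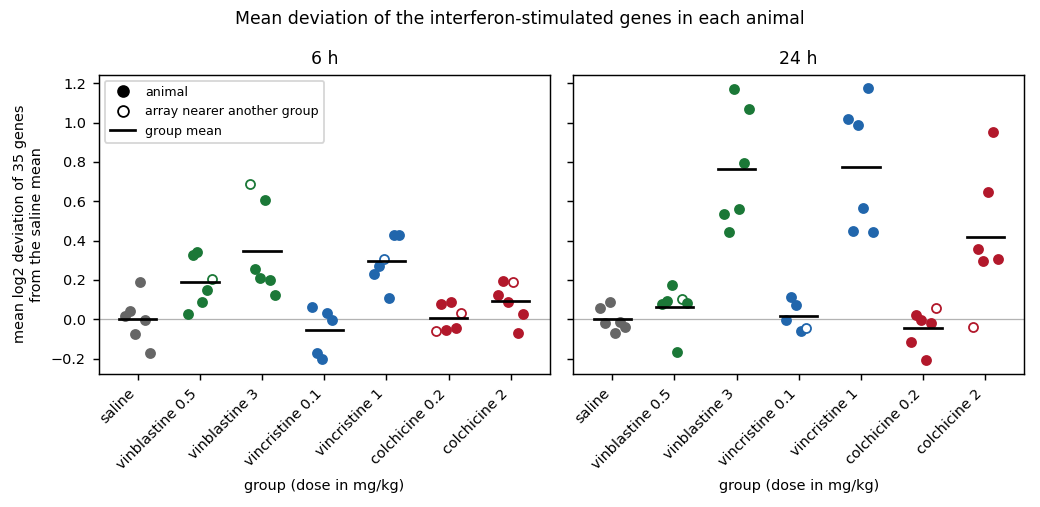
Mean log2 deviation of 35 interferon-stimulated genes from the saline mean of the same time in each animal (points), with group means as lines and open circles for arrays nearer another group, at 6 h and 24 h. At 24 h the animals of vinblastine 3 mg/kg and vincristine 1 mg/kg lie between 0.44 and 1.18, and saline animals between -0.07 and 0.09.

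Pooled over all groups, the genes moved together from animal to animal. After group means were removed, the median correlation between 2 of the 35 genes over the 82 arrays was 0.37 (595 pairs, 191 of them above 0.5, range -0.4 to 0.86), while that between one of them and another tested gene was 0.0075. Values of one array share its RNA, labelling and normalization, and the correlations are given as a description. Groups with a wide spread weigh more in them. The SD of the animals' mean deviation at 24 h was 0.34 with colchicine 2 mg/kg and 0.06 in saline animals. Correlations within single groups were not computed. Irf7 and Isg15 had the highest median correlation with the other members, at 0.61, followed by Ifit2 at 0.59 and Ifit3 and Oas1a at 0.56. Adar, Apol3l1 and Ifitm1 had the lowest, at 0.13, 0.027 and 0.026, and Irf1 stood at 0.23.

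Besides these genes, 63 others were listed, namely inducers, ligands, receptors, kinases, inhibitors, chemokines, class I MHC genes and constitutive proteasome subunits, and 43 were tested. With the higher doses of vinblastine, vincristine and colchicine 14, 2 and 4 rose and 1, 0 and 1 fell at 6 h, and 6, 11 and 18 rose and 0, 1 and 6 fell at 24 h, and none passed at the lower doses. Of all genes, 15.7%, 2.05% and 4.89% rose at 6 h and 5.29%, 12% and 19.3% at 24 h. The interferon ligands Ifnb1, Ifnk and Ifng were too dim to test, with group medians of 24.21 to 27.02, 14.91 to 16.77 and 15.78 to 17.56. Il18, a cytokine that induces interferon gamma, rose by 0.24, 0.34 and 0.28 at 24 h with the 3 higher doses, and Il15 fell by 0.35 with colchicine.

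The receptor gene Ifngr1, which binds interferon gamma, rose in all 6 groups at the higher dose. It had 1469, 1610 and 2422 with vinblastine 3 mg/kg at 6 h, against 667.9, 989.7 and 1092 in saline animals, and 1091, 1887 and 2271 with colchicine 2 mg/kg at 24 h, against 829.6, 913.6 and 1048 in saline animals. The groups of both pairs did not overlap. Its changes were 0.87, 0.59 and 0.57 at 6 h and 0.48, 0.58 and 0.91 at 24 h with vinblastine, vincristine and colchicine. Ifngr2, its partner chain, rose by 0.33 with vinblastine at 6 h and by 0.24 and 0.54 with vincristine and colchicine at 24 h. Ifnlr1, the receptor for interferon lambda, rose by 0.53 and 0.56 with vinblastine and colchicine at 6 h and by 0.69 with colchicine at 24 h. Ifnar2 and Il10rb rose with colchicine at 24 h, by 0.27 and 0.19.

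Among kinases and STAT proteins, Jak2, which signals from the interferon gamma receptor and from many cytokine receptors, rose by 1.08 with vinblastine at 6 h and by 0.63 and 1.65 with vincristine and colchicine at 24 h. Stat3, best known as the mediator of IL-6 signalling, rose by 0.91 with vinblastine at 6 h and by 0.76, 1.33 and 1.78 at 24 h. Tyk2, the kinase of the type I receptor, fell at 6 h by 0.24 with vinblastine and 0.27 with colchicine. The adaptor Myd88 of Toll-like receptors rose by 0.93 and 0.65 with vinblastine and colchicine at 6 h and by 0.83 and 1.34 with vincristine and colchicine at 24 h. Of the inhibitors, Ptpn2, a phosphatase of JAK and STAT proteins, rose by 0.72 with vinblastine at 6 h and by 0.45 and 0.89 with vincristine and colchicine at 24 h, and Socs3 by 0.49 with vinblastine at 6 h and 0.83 with colchicine at 24 h.

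The interferon-induced chemokines did not move as a group. Cxcl10 rose by 0.60 with vinblastine at 6 h and by 0.92 and 0.68 with vincristine and colchicine at 24 h, while Cxcl9 and Cxcl11 fell by 0.34 and 0.54 with colchicine at 24 h. Among class I MHC genes, RT1-S3 rose at 24 h by 0.91, 1.11 and 0.52 and Nlrc5, the activator of class I transcription, by 0.22, 0.24 and 0.15, while B2m, the shared light chain, rose with vincristine by 0.38. Psmb5, a constitutive proteasome subunit, fell by 0.16 and 0.17 with vincristine and colchicine at 24 h, and the colchicine value was 0.02 when all its probe sets were averaged. Psme1, a subunit of the proteasome activator PA28, fell by 0.29 with colchicine at 24 h.

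Leukocyte markers moved in the same samples. Of 15 monocyte and macrophage markers 11 were tested. At 24 h 7, 7 and 5 rose and 0, 0 and 1 fell with vinblastine 3 mg/kg, vincristine 1 mg/kg and colchicine 2 mg/kg. Their summed intensity was 5161, 5423 and 7588 (lowest, median, highest) with vinblastine, 4585, 5578 and 6134 with vincristine and 3004, 4026 and 4790 with colchicine, against 3051, 3248 and 3735 in saline animals, so that both vinca groups lay above saline. At 6 h 1 marker rose in each group and 2, 4 and 2 fell, and the sums overlapped with saline. Among all genes tested, 15.7%, 2.05% and 4.89% rose and 7.67%, 1.25% and 4.37% fell at 6 h. Cd14, the monocyte coreceptor for endotoxin, rose in all 6 groups by 0.94 to 1.74, Csf1r fell at 6 h by 0.58, 0.58 and 0.54, and Adgre1, Ccr2 and Cx3cr1 were under the filter. Of all genes, 5.29%, 12% and 19.3% rose and 4.28%, 18.4% and 25.3% fell at 24 h in these groups. The part of these cells in the 24 h result was not tested.

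Of 10 neutrophil markers 3 were tested. With the higher doses 3, 1 and 2 rose at 6 h (15.7%, 2.05% and 4.89% of all genes). At 24 h 0, 2 and 2 rose (5.29%, 12% and 19.3% of all genes). Their sums at 6 h were 868.6, 1230 and 1550 with vinblastine 3 mg/kg, 96.37, 617.2 and 816.1 with vincristine 1 mg/kg and 94.04, 1006 and 1098 with colchicine 2 mg/kg, against 95.27, 114.4 and 159.1 in saline animals. At 24 h they were 167.3, 182.9 and 224.7 with vinblastine, 287.3, 384.5 and 632.4 with vincristine and 159.8, 526.3 and 637.5 with colchicine, against 94.82, 113.9 and 131.2 in saline animals. All animals of these higher-dose groups at 24 h lay above saline. At lower doses the highest sums were 1493 and 747.1 with vinblastine 0.5 mg/kg at 6 h and 24 h, and 664.8 with colchicine 0.2 mg/kg at 24 h. The medians of these groups were 174.7, 99.55 and 109.9, and each holds an array nearer another group. The highest sums were 125.3 and 177.7 with vincristine 0.1 mg/kg at 6 h and 24 h and 147 with colchicine 0.2 mg/kg at 6 h. S100a9, a calcium-binding protein abundant in neutrophils, rose by 3.68, 2.11 and 2.88 at 6 h. Among 9 T and NK cell markers tested, none rose, and the summed medians of the 14 groups lay between 478.5 and 547.4. The part of neutrophils in the results at either time was not tested. The summed intensity of 7 fibroblast markers at 24 h was 19100, 22690 and 27770 with colchicine 2 mg/kg. This lay below all saline animals, at 28460, 31030 and 35680. The sums with vincristine 1 mg/kg (21970, 26300 and 28550) and vinblastine 3 mg/kg (25970, 28210 and 32060) overlapped with saline. Endothelial, B cell and dendritic cell sums at 24 h also overlapped. The part of fibroblasts was not tested.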

How the data were processed

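Total RNA of rat heart (Qiagen RNAeasy) was labelled with the Affymetrix 3' IVT kit and hybridised to 82 arrays, per the labels' protocols. The deposited values are linear intensity, 1 per probe set (31099 in all), and the method by which the authors summarised and normalized them is not given in the sources used here. Of these, 57 were controls, 20826 carried 1 gene symbol in the platform annotation, 436 several and 9780 were not listed there. Only those with 1 symbol were used, and a gene was represented by its probe set of highest mean over all arrays.

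Values were taken as log2(intensity + 16), so a fold change understates that of dim genes. Genes entered the test where 5 or more arrays had them above that array's 40th percentile. As a group holds 5 or 6 animals, a gene dim in saline could enter through a dosed group where it was high. Which genes entered in this way was not examined. Group means of all 82 arrays were fitted with limma 3.58.1 in R 4.3.3 (68 residual and 4.7 prior degrees of freedom), with p adjusted by Benjamini-Hochberg over 11323 genes in each of 22 comparisons: 12 with saline, 6 between doses, 3 between times and saline at 24 h against 6 h. Calls are at an adjusted p under 0.05, and the procedure was tested on simulated data. SE is that of limma, and n is 6 animals a group, or 5 with vincristine 0.1 mg/kg. The number of arrays limits the precision.

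The members, the lists of pathway genes and markers, and the tests were chosen with earlier results of these data known. By rule, intensities by group were given for the 8 genes called in the most comparisons with saline (ties by size of change) and for the largest rise and fall in each. Other genes with intensities were added as examples of a role after their values were seen. Pathway genes were named where called, at most 3 a role with the largest change. Alternatives changed the pseudocount, the filter, the normalization, the probe sets averaged, the groups fitted, array weights, a replicate block and the arrays left out. Residual correlation of same-numbered animals did not pair the groups.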

Additional observations from a re-analysis of the deposited data

Results flagged for a closer look

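In 14 of 182 groups of values examined (7.69%, where chance gives about 1 in 20), a single animal stood apart from the rest of its group. Gbp2 was high in vinblastine 0.5 mg/kg 6 h replicate 2 (293.3, the others 138.2 to 181.8) and in colchicine 2 mg/kg 24 h replicate 5 (425.7, the others 170 to 229.2). It was low in vinblastine 0.5 mg/kg 24 h replicate 4 (118.2, the others 174.2 to 209.6) and in vincristine 1 mg/kg 6 h replicate 4 (182.8, the others 233.2 to 255.1). Mx1 was high in vinblastine 0.5 mg/kg 6 h replicate 3 (89.35, the others 32.18 to 44.38), in vinblastine 3 mg/kg 6 h replicate 1 (140.4, the others 38.97 to 47.64) and in colchicine 2 mg/kg 24 h replicate 5 (289.2, the others 30.31 to 70.49).

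Ifit3 was high in saline 6 h replicate 4 (67.72, the others 38.33 to 42.95) and low in vincristine 0.1 mg/kg 6 h replicate 2 (33.78, the others 40.07 to 42.07). Ifitm1 was high in vinblastine 3 mg/kg 6 h replicate 1 (2336, the others 813.6 to 1194) and low in colchicine 2 mg/kg 6 h replicate 4 (635.6, the others 872 to 1034), both arrays nearer another group. Apol3l1 was high in vinblastine 0.5 mg/kg 6 h replicate 2 (506.8, the others 327.6 to 376.4), and Adar was low in colchicine 0.2 mg/kg 24 h replicate 6 (297, the others 443.5 to 533.7), also an array nearer another group. The mean deviation of the 35 genes was low in vinblastine 0.5 mg/kg 24 h replicate 4 (-0.17, the others 0.08 to 0.17).

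The change against saline differed between 24 h and 6 h by limma's test of the difference for 8, 12 and 4 genes. With vinblastine 3 mg/kg the change at 24 h minus that at 6 h was -0.69 for Irf1, 1.04 for Irf7, 1.80 for Mx1, 1.16 for Mx2, 0.55 for Isg20, 0.99 for Oas1a, 0.76 for Bst2 and 0.78 for Ifi44, with adjusted p between 0.00180 and 0.0442. With vincristine 1 mg/kg it was 0.46 for Stat2, 1.3 for Mx2, 0.40 for Isg20, 1.58 for Ifit3, 1.04 for Oas1a, 0.74 for Oasl, 0.78 for Rsad2, 0.91 for Ifitm1, 1.2 for Isg15, 1.22 for Trim25, 0.47 for Ifi44 and 0.37 for Apol3l1, with adjusted p between 0.000961 and 0.0399. With colchicine 2 mg/kg it was 0.93 for Ifitm1, 0.54 for Ifitm3, 1.23 for Trim25 and 0.31 for Tapbp, with adjusted p between 0.000561 and 0.0320.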

How the results depend on the processing

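Of the 102 calls of interferon-stimulated genes against saline, none changed sign under any alternative, and 80 held with each single animal left out. The number kept was 102 with a pseudocount of 1, 99 with 64, 97 with no filter, 101 with quantile normalization, 99 with all probe sets averaged, 91 with only the compared groups fitted, 96 with array weights, 92 without the 6 arrays whose description ends in _2 and 96 without the 10 arrays nearer another group, which were chosen after seeing the data. With a filter at the 60th percentile, 89 of the 102 calls were of genes still tested, and all of these were kept. The rest were of genes too dim for that filter and could not be assessed. The 24 h counts stayed within 1.5 times of their value in all of these. Dim probe sets such as Mx1, Ifit3 and Isg20 limit what can be read at 6 h.

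The 6 h and timing counts moved more. Fitting only the compared groups gave 11 calls with vinblastine 3 mg/kg (17 in the fit of all arrays), 6 with colchicine 2 mg/kg (3), 0 with colchicine 0.2 mg/kg (1), and 0, 15 and 8 between the doses of vinblastine, vincristine and colchicine (3, 9 and 1), and 2 for the timing with colchicine (4). Array weights gave 9 with colchicine 2 mg/kg, 11 between its doses, and 16 and 16 for the timing with vinblastine (8) and colchicine. Without the arrays ending in _2 the counts were 11 with vinblastine 3 mg/kg, 0 with colchicine 0.2 mg/kg, 1, 5 and 3 between the doses of vinblastine, vincristine and colchicine, and 2 for the timing with colchicine. Without the arrays nearer another group they were 1 with vinblastine 0.5 mg/kg (0), 8 with colchicine 2 mg/kg, 5 between its doses, and 14 and 11 for the timing with vinblastine and colchicine. Between the doses of colchicine at 6 h the count was also 2 with a pseudocount of 1, 3 with the 60th percentile filter, 3 with quantile normalization and 2 with all probe sets averaged, and with colchicine 0.2 mg/kg it was 0 with a pseudocount of 64, no filter and the 60th percentile filter. The cause of these shifts was not tested.

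With 1 animal left out, the counts at 6 h ranged over 10 to 18 with vinblastine 3 mg/kg, 3 to 9 with vincristine 1 mg/kg, 2 to 6 with colchicine 2 mg/kg and 0 to 1 with colchicine 0.2 mg/kg, and over 1 to 4, 2 to 10 and 1 to 7 between the doses of vinblastine, vincristine and colchicine. At 24 h they ranged over 25 to 27, 30 to 32 and 14 to 18 against saline and 23 to 26, 29 to 32 and 14 to 23 between doses, and the timing counts over 3 to 11, 8 to 13 and 2 to 11. The other comparisons stayed at 0. Psmb5 with colchicine 2 mg/kg at 24 h changed from -0.17 to 0.022 when its probe sets were averaged. Same-numbered animals were not paired (70 pairs, median correlation 0.01, range -0.38 to 0.45, 20 above 0.1), and the replicate block kept 101 of the 102 calls, losing Irf1 with colchicine 2 mg/kg at 6 h.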
